A study of Mus musculus with 7 samples.

Results

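The genes of the contractile and cytoskeletal motor were examined in whole kidneys of LBR-null mice and 1 wild-type (WT) mouse. These genes encode myosin heavy chains (Myh), myosin light chains (Myl), troponins (Tnnc, Tnni, Tnnt), tropomyosins (Tpm) and the muscle actins Acta1, Acta2, Actc1 and Actg2, and were taken by symbol. The rule matched 42 of the 24328 gene rows. Of these, 4 are smooth muscle genes and 13 belong to skeletal striated muscle, with the slow troponins Tnni1 and Tnnt1 among them. A further 12 belong to cardiac or slow striated muscle and 8 to non-muscle cells. Another 3 are tropomyosins that muscle and other cells share, and 2 (Tnni3k, a cardiac kinase that binds troponin I, and Myl10) were matched by symbol only. A mean of at least 5 normalized counts over the 4 mice was reached by 39 of the 42, and the other 3 (Myh2, Tnnc2 and Myl10) were not tested.

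All mice were C57BL/6J, 4 weeks old and on standard chow. The LBR-null group held 3 mice (4001, 4002 and 4007) homozygous for a loss-of-function allele of Lbr, labelled Lbric-J/ic-J, and the WT group held 1 littermate (4009), labelled Lbr+/+. LBR anchors silent chromatin at the edge of the nucleus, the allele is constitutive and thus carried by every cell, and the comparison asks which transcripts differ in its absence. Polyadenylated RNA of the pulverized right kidney was sequenced, with 2 libraries from mice 4001, 4007 and 4009 and 1 from mouse 4002, 7 in all. Values are read counts that the authors divided by a library size factor (normalized counts).

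Kidney smooth muscle lies in the walls of arteries, arterioles and the pelvis, where phosphorylation of a regulatory light chain lets myosin pull on smooth muscle actin. Striated muscle instead uses calcium binding to troponin, which shifts tropomyosin on the thin filament, and its sarcomeric genes are normally close to silent in kidney. Non-muscle myosins work with cytoplasmic actin in podocytes, tubules and stroma, and serum response factor binds CArG boxes in front of many of these genes.

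Between 20694016 and 26333284 reads fell on genes in each library, and 1 read was equal to between 0.787 and 1.15 normalized counts. Lbr itself read 314 to 495 normalized counts in the LBR-null libraries and 381 and 416 in the WT libraries, which overlap, so the transcript level does not check the genotype labels. The female-expressed Xist read 5352 to 10162 in mice 4001 and 4007 and 31.7 to 65.3 in mice 4002 and 4009. The Y-linked Ddx3y read 1516 in mouse 4002 and 1299 and 1269 in WT. It read 149 and 133 in mouse 4001 and 49.4 and 39.2 in mouse 4007. By Xist and Ddx3y, mice 4002 and 4009 were male-like and mice 4001 and 4007 female-like. The labels give no sex, and for mice 4001 and 4007 it cannot be told apart from genotype. Mouse 4002 is therefore also set against WT on its own below. Kidney markers were abundant in every library, with summed proximal tubule markers at 111060 to 488840 normalized counts. The main test was limma on log2(normalized counts + 1) of the mouse means, with Benjamini-Hochberg adjustment over 17283 genes, and the lone WT mouse was assumed to vary like the LBR-null mice. A gene was called at an adjusted p under 0.05 and a fold change of at least 2. Unless edgeR or DESeq2 is named, each log2 fold change is LBR-null minus WT on this log2 scale, which understates the change of low genes.

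The promoters of 6 genes are shown because smooth, cardiac and skeletal genes of contrasting behaviour among these results are represented, and because each holds a CArG box or a MEF2 site, the binding letters of serum response factor and of the myocyte enhancer factors. Each window runs from 250 bases before to 50 bases after the RefSeq start (GRCm38.p6) and was found once in NCBIM37 (mm9), whose coordinates are given. Capitals mark the motif, read on both strands. The windows are Myl9 at chr2:156600950-156601249 (+ strand), Actc1 at chr2:113878562-113878861 (− strand), Myl7 at chr11:5798736-5799035 (− strand), Myh1 at chr11:67013354-67013653 (+ strand), Myh4 at chr11:67051064-67051363 (+ strand) and Myh8 at chr11:67090376-67090675 (+ strand).
Myl9: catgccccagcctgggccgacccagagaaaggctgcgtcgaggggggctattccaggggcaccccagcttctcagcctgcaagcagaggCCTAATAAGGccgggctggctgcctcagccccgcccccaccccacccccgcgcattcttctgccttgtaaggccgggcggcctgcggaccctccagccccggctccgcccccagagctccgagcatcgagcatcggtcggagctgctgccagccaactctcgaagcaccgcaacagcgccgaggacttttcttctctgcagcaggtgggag
Actc1: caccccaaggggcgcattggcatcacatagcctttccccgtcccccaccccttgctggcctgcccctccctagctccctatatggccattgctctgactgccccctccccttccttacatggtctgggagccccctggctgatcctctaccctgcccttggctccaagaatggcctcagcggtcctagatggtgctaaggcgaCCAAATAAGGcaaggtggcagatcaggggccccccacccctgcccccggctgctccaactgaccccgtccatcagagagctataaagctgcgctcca
Myl7: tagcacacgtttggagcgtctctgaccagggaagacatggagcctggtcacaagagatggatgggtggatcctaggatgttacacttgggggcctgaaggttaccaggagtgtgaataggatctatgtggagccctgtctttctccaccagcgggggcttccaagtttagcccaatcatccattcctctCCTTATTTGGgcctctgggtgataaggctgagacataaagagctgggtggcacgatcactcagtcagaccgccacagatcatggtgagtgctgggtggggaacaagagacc
Myh1: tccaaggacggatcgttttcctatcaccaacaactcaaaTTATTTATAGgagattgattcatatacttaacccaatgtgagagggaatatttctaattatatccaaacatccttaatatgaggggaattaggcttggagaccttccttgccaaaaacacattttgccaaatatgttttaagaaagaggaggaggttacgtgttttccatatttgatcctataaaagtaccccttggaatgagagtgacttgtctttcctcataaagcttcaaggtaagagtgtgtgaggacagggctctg
Myh4: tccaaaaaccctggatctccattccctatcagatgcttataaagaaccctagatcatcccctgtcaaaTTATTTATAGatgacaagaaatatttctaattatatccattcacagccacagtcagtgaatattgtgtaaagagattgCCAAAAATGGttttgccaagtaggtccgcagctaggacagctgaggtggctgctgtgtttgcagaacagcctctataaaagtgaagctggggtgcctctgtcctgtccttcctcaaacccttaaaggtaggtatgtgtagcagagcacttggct
Myh8: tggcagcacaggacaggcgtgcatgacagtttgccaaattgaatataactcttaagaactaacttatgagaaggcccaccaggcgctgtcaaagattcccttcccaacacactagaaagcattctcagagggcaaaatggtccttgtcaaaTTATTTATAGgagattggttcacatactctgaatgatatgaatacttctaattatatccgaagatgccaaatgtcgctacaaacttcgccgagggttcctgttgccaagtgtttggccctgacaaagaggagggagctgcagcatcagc

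Of the 42 genes, 38 had at least 1 such window, with 46 windows in all. The smooth muscle class had windows for 2 of its 4 genes, and none was available for Actg2 and Myh11. A CArG box was found in 8 genes (Myl9, Actc1, Myl7, Acta1, Myl3, Myl6, Myh4 and Myh13) and a MEF2 site in 4 (Myh1, Myh4, Myh8 and Tnni3k). By window, 8 of 46 held a CArG box and 4 of 46 a MEF2 site. Over all 32851 RefSeq windows of this length, 1.63% held a CArG box and 3.19% a MEF2 site. Only exact motif letters were counted, so variant sites were missed. The MEF2 letters were the same run, TTATTTATAG, in Myh1 (first base at −211), Myh4 (−182) and Myh8 (−99). In Myl9 the CArG box began at −161, in Actc1 at −47 and in Myl7 at −61, so the motif stood in front of a gene that was lower in LBR-null kidneys and of genes that were higher.

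The classes parted in direction. All 4 smooth muscle genes read lower in each of the 5 LBR-null libraries than in either WT library (a separation that 25.7% of all genes tested showed). The 12 cardiac or slow genes were at least 2-fold higher in the LBR-null mean (14.5% of all genes), and 4 of 12 were without mouse 4001. That class leaves out the slow troponin T gene Tnnt1, counted as skeletal, which was below WT in every LBR-null library. No non-muscle gene differed 2-fold by ratio of means. With limma, 0 of 39 genes were called, as were 0.0% of all genes in either direction. At an unadjusted p under 0.05, 5 of the 39 were higher (10.7% of all genes tested) and 4 lower (8.05%). The 5 were Myh1, Myh4, Myh8, Myh13 and Myh7b, and the 4 were Myl9, Tpm2, Tpm4 and Myh11. The mean filter covered 3 LBR-null mice and 1 WT mouse, so it favoured genes higher in LBR-null kidneys. Myh1, Myh4, Myh8 and Myh13 passed it through their LBR-null values, with WT values of 1.36, 0.394, 2.03 and 1.30. So did Myh15 and Tnni3k, at 3.17 and 0.787 in WT. Tnnc2, at 5.08 in WT but with a mean of 3.30, failed it.

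By ratio of means, 21 of the 39 were at least 2-fold higher in LBR-null kidneys, against 14.5% of all genes, and 3 were at least 2-fold lower, against 7.04%. These shares also stand beside the 2-fold counts of the classes and lists below. Without mouse 4001 the 2-fold counts were 11 higher and 6 lower. No share of all genes was computed for 2-fold counts without that mouse. All 5 LBR-null libraries lay above both WT libraries for 13 of the 39 (25.5% of all genes) and below both for 12 (25.7%). Without mouse 4001, 15 lay above (35.8% of all genes) and 15 below (35.1%). Calls depended on the fit. Without mouse 4001, limma called 7 (Myh4, Myh8, Actc1 and Myh7b higher, where 2.94% of all genes were called, and Acta2, Myl9 and Tpm2 lower, where 3.83% were). Without mouse 4002 it called 3 (Myh4 and Myh8 higher, background 1.96%, and Myl9 lower, background 1.66%). DESeq2 on the recovered reads called Myh8 and Myh7b higher (3.24% of all genes) and Myl9 and Tpm2 lower (3.48%). Limma on all libraries with mouse as a random term called Myh7b higher (2.0%) and Myl9 and Tpm2 lower (2.9%), whereas edgeR called 0 of the 39 (0.00579% of all genes higher and 0.156% lower).

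**Figure D1:**
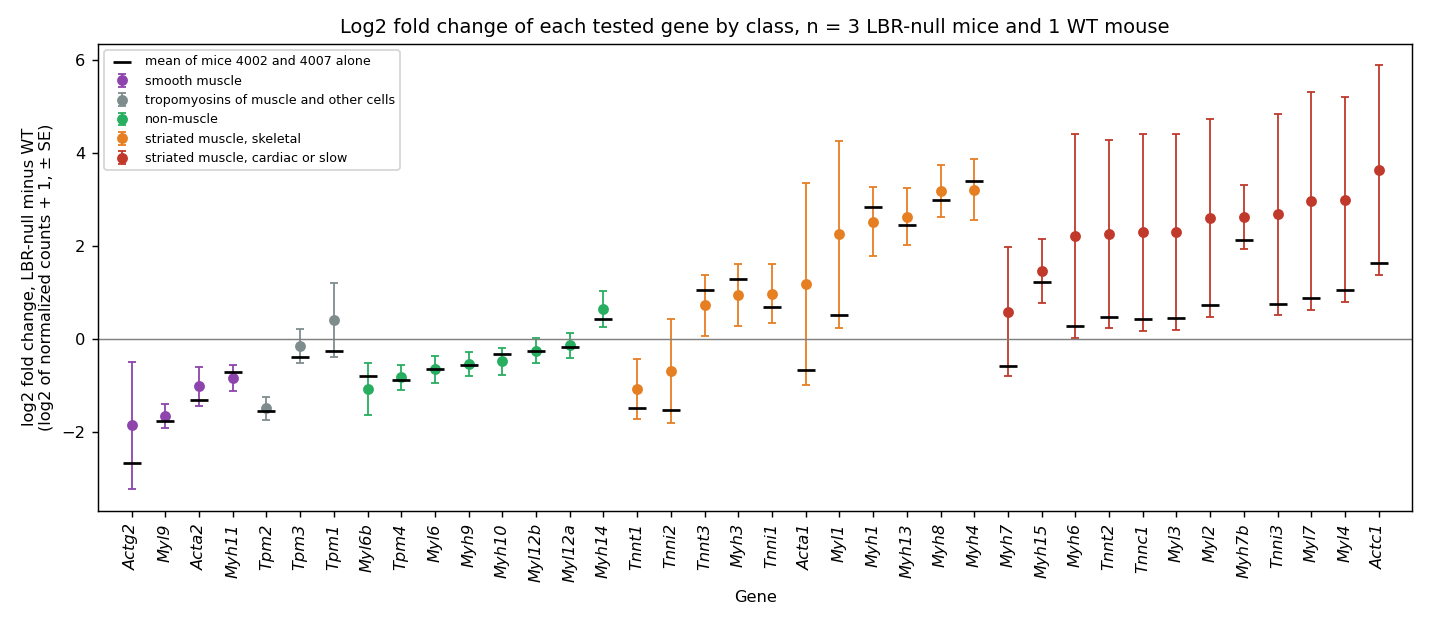
Log2 fold change of LBR-null minus WT (y axis, log2 of normalized counts + 1) for the tested genes of 5 classes (x axis). Points are means over 3 LBR-null mice against 1 WT mouse with the limma standard error as bars, and black dashes are the mean of mice 4002 and 4007 alone. Cardiac genes such as Actc1 (3.63) and Myl4 (2.999) drop towards 0 on the dashes, while Myl9 (−1.65), Tpm2 (−1.48) and Myh8 (3.19) stay close to theirs.

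Smooth muscle genes had a median log2 fold change of −1.33, beside 0.0073 over all genes tested, and medians of −0.74, −1.56 and −1.20 in mice 4001, 4002 and 4007. Myl9, the regulatory light chain of smooth muscle and non-muscle myosin (mm9 chr2:156601156-156607394), read 1897 and 1665 normalized counts in mouse 4001, 1513 in mouse 4002 and 1305 and 1379.9 in mouse 4007, against 4798 and 4817 in the WT libraries. Every LBR-null library was far below either WT library, and repeat libraries lay close together. The LBR-null mean was 1545 ± 221 (SD, n = 3 mice) against 4808 in the WT mouse. The log2 fold change was −1.65 (SE 0.26), with adjusted p = 0.0906 by limma, and ranged from −1.75 to −1.55 over the alternatives, with adjusted p from 1.87e-05 to 0.255. Myl9 had the highest level per kilobase of the class in WT kidney, 4137 normalized counts per kilobase of exon.

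Acta2, the smooth muscle actin of vessel walls and myofibroblasts (chr19:34315580-34329826), read 3021 and 2565 in mouse 4001, 1349.9 in mouse 4002 and 1558 and 1696 in mouse 4007, against 3657 and 3705 in WT. The groups did not overlap, and mouse 4001 lay nearest to WT. The mean was 1923 ± 766 (SD, n = 3) against 3681, a log2 fold change of −1.01 (SE 0.42, limma adjusted p = 0.268). Without mouse 4001 it was −1.31 and was called (adjusted p = 0.0221), and over the alternatives the adjusted p ran from 0.0221 to 0.582.

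Myh11, the smooth muscle myosin heavy chain and a specific marker of that lineage, read 886 and 1002 in mouse 4001, 1125 in mouse 4002, 1332 and 1329.8 in mouse 4007 and 2116 and 1893 in WT. Here mouse 4001 was the lowest of the LBR-null mice, the reverse of its place for Acta2. The log2 fold change was −0.84 (SE 0.27, limma adjusted p = 0.179), and no alternative called it (0.0598 to 0.411). Actg2, the actin of visceral smooth muscle, read 49.4 and 50.6 in mouse 4001, 2.58 in mouse 4002 (3 reads), 17.7 and 32.8 in mouse 4007 and 63.8 and 56.1 in WT. All LBR-null libraries were below WT, but the mice differed among themselves by more than mouse 4001 differed from WT, and the log2 fold change of −1.85 (SE 1.37) had an adjusted p of 0.515 by limma. Mouse 4002 weighed on this value, which was −0.74 without it and −4.09 for it alone.

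**Figure D2:**
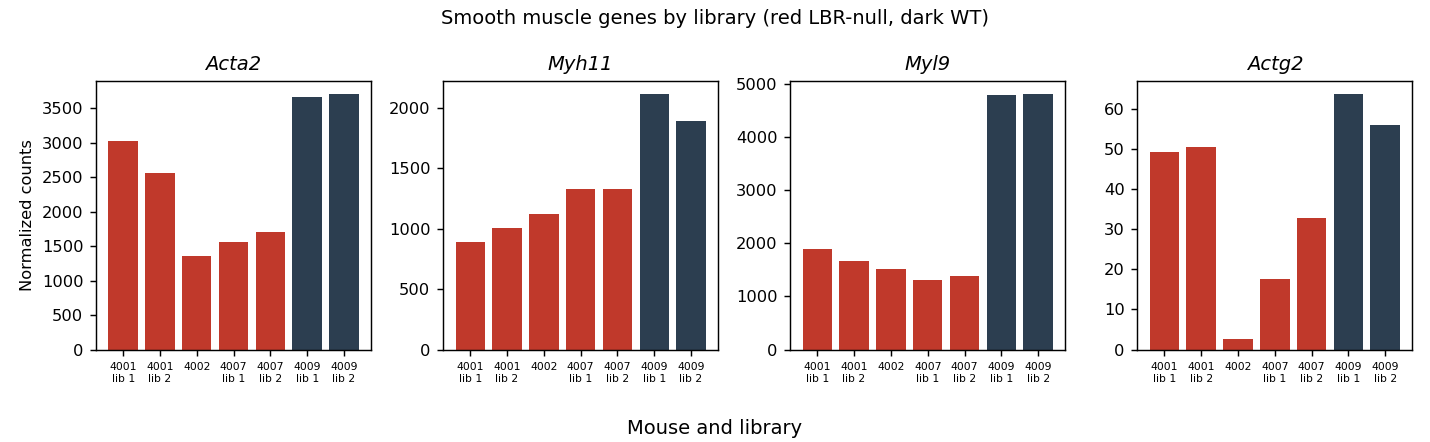
Normalized counts (y axis, from 0) of the 4 smooth muscle genes in each library (x axis), red for the 5 LBR-null and dark for the 2 WT libraries. Every red bar is below both dark bars in each panel, with Myl9 at 1305 to 1897 against 4798 and 4817.

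In whole kidney, fewer cells of a type and less RNA per cell cannot be told apart. The other smooth muscle apparatus genes, a list of 12, gave 7 below both WT libraries (25.7% of all genes) and 1 above (25.5%). Of the 12, 3 were at least 2-fold lower (7.04% of all genes) and 2 at least 2-fold higher (14.5%). Limma called 0, whereas DESeq2 called Tagln and Ppp1r14a lower (3.48% of all genes). Without mouse 4001, 10 were below (35.1%), 5 at least 2-fold lower and 1 higher, and limma called 3 lower (Tagln, Cnn1 and Ppp1r14a, the last an inhibitor of myosin phosphatase, against 3.83% of all genes). Their median log2 fold change was −0.91. Tagln, an actin-binding protein of smooth muscle, read 1150.4 to 2024 in LBR-null libraries and 3966 and 3999 in WT (log2 fold change −1.33, limma adjusted p = 0.124, and 0.0384 without mouse 4001). Itga8, an integrin of mesangial and smooth muscle cells, read 319 to 811 against 1436 and 1462 (−1.49, adjusted p = 0.183). Smtn, which marks contractile smooth muscle, and Mylk, the kinase that phosphorylates Myl9, had log2 fold changes of −0.61 and −1.05 (limma adjusted p = 0.370 and 0.373). Without mouse 4001 these were −0.43 and −0.61. Mylk read 1667 and 1760 in mouse 4001, 3804 to 4853 in mice 4002 and 4007 and 6569 and 6605 in WT. Myocd, the coactivator of smooth muscle genes, read 23.2 to 43.5 in LBR-null libraries and 11.025 and 12.7 in WT, so it lay in the opposite direction to the 4 smooth muscle genes (1.26, adjusted p = 0.258).

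Pericyte and mural markers (8 genes) summed to 5538 to 6721 in LBR-null libraries and 6493 to 6576 in WT, which overlap, and 0 of 8 differed 2-fold. Fibroblast markers (8 genes) summed to 15068 to 30961 against 39068 to 40069, with 3 of 8 at least 2-fold lower and 2 at least 2-fold higher. Without mouse 4001, 6 of 8 were at least 2-fold lower, 0 higher, and 6 were called lower by limma (3.83% of all genes). Endothelial markers summed to 20416 to 24276 against 22264 to 22373 with 0 of 8 differing 2-fold. For adipocytes, 6 of 8 markers were at least 2-fold lower (7.04% of all genes), although the sums overlapped (5098 to 8837 against 6080 to 6178). Most of these sums was 1 gene, Fabp4, at 5002 to 8566 against 4954 and 5042. Podocyte sums were 9588 to 19609 against 23132 to 23489, urothelium 350 to 707 against 1097 to 1138, and proximal tubule 111060 to 267600 against 470850 to 488840. Most of the proximal tubule sum was Kap, at 57458 to 205800 against 347000 and 367290. Of the 7 proximal tubule genes, 5 were at least 2-fold lower (7.04% of all genes). Aqp1 ran the other way, at 22028 to 37850 against 16932 and 17126. No marker of these lists was at 0 in all libraries. Distal nephron markers overlapped (100630 to 201920 against 119870 to 120720), erythroid and platelet markers summed to 1669.8 to 2777 against 4177 to 4266 with Hbb-b1 at 0 in all libraries, and adrenal markers were low (169 to 219 against 120.5 to 132). The part of fibroblasts, fat, urothelium or tubule in the smooth muscle values was not tested.

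Tropomyosins cover actin in every cell type. Tpm2, abundant in smooth and slow muscle (chr4:43527583-43536637), read 460 and 348 in mouse 4001, 353 in mouse 4002 and 385 and 355 in mouse 4007, against 1076 and 1026 in WT. The LBR-null mice were alike and all were well below WT. The mean was 376 ± 25.9 (SD, n = 3) against 1051, a log2 fold change of −1.48 (SE 0.25) with limma adjusted p = 0.0906 and 7.66e-05 to 0.292 over the alternatives. Tpm2 thus stood with the smooth muscle genes. Tpm1, the main tropomyosin of heart, read 20268 and 15481 in mouse 4001, 4648 in mouse 4002, 4332 and 4415 in mouse 4007 and 5527 and 5167 in WT. Only the libraries of mouse 4001 were above WT, and the direction turned with that mouse (0.42 with it, −0.25 without). Tpm3, of slow muscle and non-muscle cells, read 3419 and 3356, 1927, and 2107 and 2158 in the same order, against 2705 and 2598. It too was above WT in mouse 4001 alone, and its log2 fold change was −0.14 (limma adjusted p = 0.873), turning to 0.0196 without mouse 4002.

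The cardiac genes separated 1 mouse from the rest. Averaged over its libraries, mouse 4001 read 10 of the 12 cardiac or slow genes at 10.7 to 73.8 times the mean of mice 4002 and 4007, and 13 of the 39 tested were at least 10-fold higher, against 0.555% of all genes tested. The 12 genes together took 0.467% and 0.356% of all normalized counts in mouse 4001, 0.00931% in mouse 4002, 0.01002% and 0.0102% in mouse 4007, and 0.00957% and 0.00315% in WT. The first WT library thus lay within the range of mice 4002 and 4007.

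Myh6, the fast cardiac myosin heavy chain of the mouse heart, chosen after its values were seen, read 37297 and 26380.4 in mouse 4001, 485 in mouse 4002, 661 and 643 in mouse 4007 and 716 and 209.9 in WT. It was high in mouse 4001 only. Tnnt2, cardiac troponin T and the highest of the class per kilobase, read 15436 and 10249 in mouse 4001, 352 in mouse 4002, 279 and 293 in mouse 4007 and 361 and 91.4 in WT. The same split held, with the first WT library slightly above mice 4002 and 4007.

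Actc1, the cardiac actin, had the largest log2 fold change of the class. It read 8837 and 7858 in mouse 4001, 113 in mouse 4002, 143 and 164 in mouse 4007, and 61.4 and 21.7 in WT. All LBR-null libraries were above WT, also without mouse 4001. The log2 fold change was 3.63 (SE 2.26, limma adjusted p = 0.439) with mouse 4001 and 1.64 without it (adjusted p = 0.0378, called), over a range of adjusted p from 0.0378 to 0.590.

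Myl7, the atrial regulatory light chain, read 5331 and 3989.7 in mouse 4001, 71.4 in mouse 4002 and 61.5 and 48.3 in mouse 4007, against 28.3 and 38.0 in WT. Myl4, the atrial essential light chain, read 7367 and 5209, 132, and 76.4 and 105 in the same order, against 52.8 and 51.6. For both atrial light chains every LBR-null library was above WT, with log2 fold changes of 2.96 and 2.999 (limma adjusted p = 0.543 and 0.513) that came to 0.90 and 1.06 without mouse 4001. Tnni3, cardiac troponin I, read 10967 and 7467, 165, and 174 and 179, against 147 and 52.5. Tnnc1, the troponin C of heart and slow muscle, read 6010 and 4211, 99.7, and 105 and 110.3, against 93.7 and 59.7. These were above WT in every LBR-null library too, but mice 4002 and 4007 exceeded the higher WT library by little, and the log2 fold changes of 2.68 and 2.30 (adjusted p = 0.553 and 0.608) came to 0.77 and 0.43 without mouse 4001.

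Myh7b, a slow myosin heavy chain that hosts a microRNA, differed from the others. It read 127 and 87.9 in mouse 4001, 36.1 in mouse 4002 and 39.1 and 44.7 in mouse 4007, against 7.09 and 9.05 in WT. All 3 LBR-null mice were well above WT, and mouse 4001 exceeded the other LBR-null mice only 2.76-fold. The log2 fold change was 2.62 (SE 0.69, limma adjusted p = 0.127) and 2.14 without mouse 4001 (adjusted p = 0.0393), with 0.00979 to 0.310 over the alternatives. Among the remaining cardiac genes, Myl2 and Myl3 (ventricular light chains), Myh7 (the slow cardiac heavy chain) and Myh15 overlapped between the genotypes. Myh7 turned direction, with a log2 fold change of 0.59 with mouse 4001 and −0.58 without it.

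**Figure D3:**
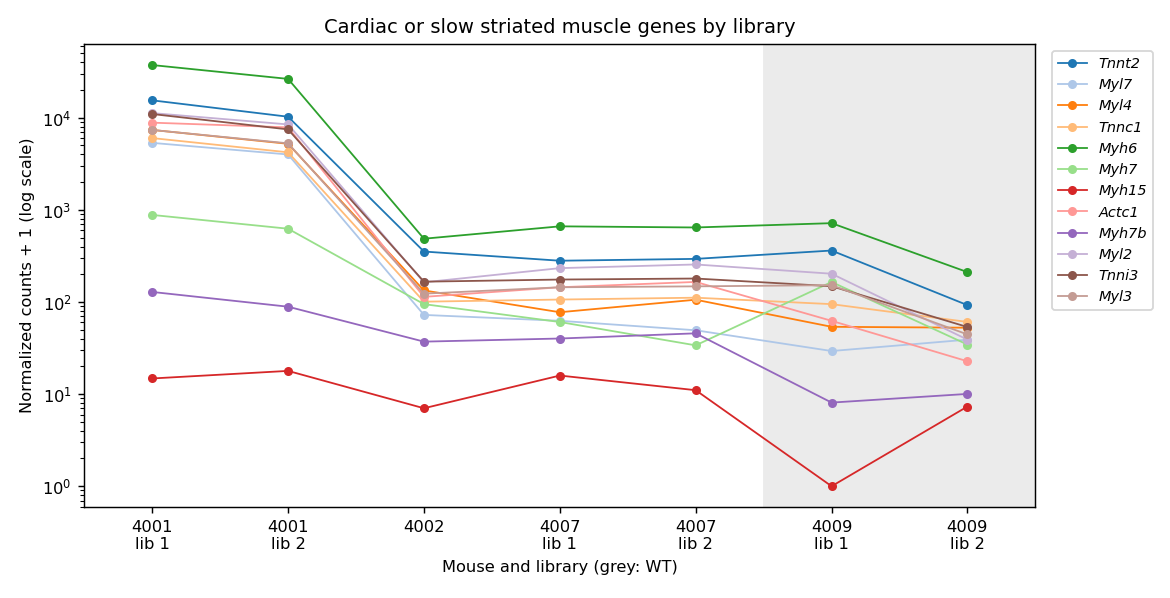
Normalized counts + 1 on a log axis (y) of the 12 cardiac or slow genes in each of the 7 libraries (x), with the WT libraries on grey. In mouse 4001 10 lines are 10.7 to 73.8 times the mean of mice 4002 and 4007, while Myh7b and Myh15 are not, and the WT libraries differ from each other for several genes.

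The class median followed the mice: 6.07 in mouse 4001, 0.68 in mouse 4002 and 0.75 in mouse 4007 on the log2 scale, and 2.45 in the mean. Of the 12, 12 were at least 2-fold higher with mouse 4001 and 4 without it. The WT libraries of the same mouse also differed. For 7 of the 12 (Actc1, Myh6, Myh7, Myl2, Myl3, Tnni3 and Tnnt2) the first WT library was at least 2-fold above the second, against 2.26% of all genes tested. Myl2, chosen after its values were seen, read 202 and 38.0 in the WT libraries (256 and 42 reads), a ratio of 5.31, and 11226, 8454, 163, 232 and 254 in the LBR-null ones. The atrial Myl4 and Myl7 had ratios of the first to the second WT library of 1.02 and 0.746, so they did not move with these 7 genes. The ratio of these 7 genes to WT therefore changed with the WT library.

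Ratios of cardiac transcripts to one another were compared between libraries. Myl7 over Myl2, atrial over ventricular, was 0.475 and 0.472 in the libraries of mouse 4001, 0.439 in mouse 4002, 0.265 and 0.190 in mouse 4007, and 0.141 and 1 in WT. Nppa, atrial natriuretic peptide, over Myh6, which atria and ventricles share, was 0.495 and 0.538, 0.782, 0.201 and 0.214, and 0.0550 and 0.181 in the same order. The repeat libraries of mouse 4001 held these pairs in nearly the same ratio, whereas those of the WT mouse did not. Other pairs stayed closer between the WT libraries, with Tnnt2 over Myh6 at 0.504 and 0.435 and Tnni3 over Myh6 at 0.206 and 0.250.

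**Figure D4:**
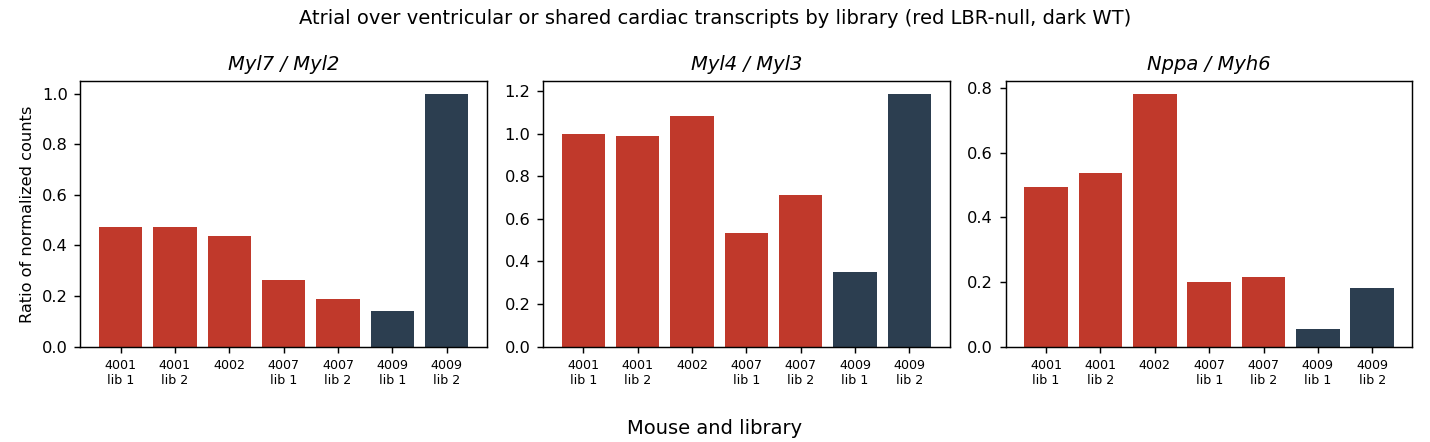
Ratio of normalized counts (y axis, from 0) of Myl7 over Myl2, Myl4 over Myl3 and Nppa over Myh6 in each library (x axis), red for LBR-null and dark for WT. The libraries of mouse 4001 give 0.475 and 0.472 for Myl7 over Myl2, and the WT libraries 0.141 and 1.

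Other heart genes were high in mouse 4001 as well. Nppa read 18457 and 14200 in mouse 4001, 379 in mouse 4002, 133 and 138 in mouse 4007 and 39.4 and 38.0 in WT. All LBR-null libraries were above WT, and without mouse 4001 its log2 fold change was 2.52 (limma adjusted p = 0.0432). Of the cardiac muscle apparatus list, 8 of 8 were at least 2-fold higher with mouse 4001 (14.5% of all genes) and 2 of 8 without it. Of the 8, 3 lay above both WT libraries (25.5% of all genes), while 0 of 8 were called by limma. The list summed to 23448 and 30295 in mouse 4001, 501 to 718 in mice 4002 and 4007 and 223 to 440 in WT. Mybpc3, cardiac myosin-binding protein C, and Nppb, the ventricular natriuretic peptide, were 40.4 and 19.1 times the mean of mice 4002 and 4007. The cardiac transcription factors Nkx2-5 and Tbx5 read 66.6 and 74.5, and 103 and 125, in mouse 4001, where the others had at most 6.52 and 34.5. Some markers of other cell types also stood apart in mouse 4001. The 8 fibroblast genes ranged from 0.704 (Pdgfra) and 1.16 (Col1a2) to 7.46 (Postn) and 28.0 (Lum) times the mean of mice 4002 and 4007. Summed podocyte markers were 9588 and 9992 in mouse 4001 against 18507 to 19609 in mice 4002 and 4007. Whether the cardiac transcripts were made by kidney cells or came from heart tissue carried with the sample was not tested.

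Skeletal muscle genes read at most 48.8 normalized counts in WT kidney (Tnnt1, 62 reads). A cluster of 6 skeletal myosin heavy chain genes lies on chromosome 11, with Myh3, Myh2, Myh1, Myh4, Myh8 and Myh13 in that order between 66891802 and 67185088 (mm9). Myh8, the perinatal heavy chain, read 42.5 and 28.4 in mouse 4001, 19.8 in mouse 4002 and 23.3 and 30.1 in mouse 4007, against 3.15 and 0.905 in WT (4 reads and 1 read). Every LBR-null library was far above both WT libraries, and mouse 4001 was not set apart from the others. In limma its log2 fold change was 3.19 (SE 0.56, limma adjusted p = 0.0938), and the alternatives gave adjusted p from 0.00563 to 0.259.

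Myh4, the fast IIb heavy chain, read 10.3 and 7.99 in mouse 4001, 10.3 in mouse 4002, 19.6 and 16.4 in mouse 4007 and 0.787 and 0 in WT. The WT libraries held 1 read together against 69 in the LBR-null libraries, a ratio of 30.7 with an exact 95% counting interval of 5.34 to 1232, which covers counting error only. Its log2 fold change was 3.22 (SE 0.65, limma adjusted p = 0.103), with 0.0374 to 0.294 over the alternatives. Myh1, the IIx heavy chain, read 6.89 and 8.87, 10.3, and 26.1 and 21.9 in the same order, against 0 and 2.71. Its 3 WT reads gave a ratio of 11.9 (interval 3.92 to 58.8), with a log2 fold change of 2.53 (adjusted p = 0.152). Myh13, the heavy chain of eye muscles, read 13.8 and 20.4, 14.6, and 7.45 and 10.9, against 0.787 and 1.81, a ratio of 10.7 (interval 3.52 to 53.1) and a log2 fold change of 2.63 (adjusted p = 0.114). In all 4 genes the genotypes did not overlap, and in Myh1 and Myh4 mouse 4007 was the highest. The embryonic Myh3 overlapped between genotypes (4.44 to 21.4 against 5.43 and 5.51), as did Myh2 (1.15 to 11.2 against 0.905 and 4.72).

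**Figure D5:**
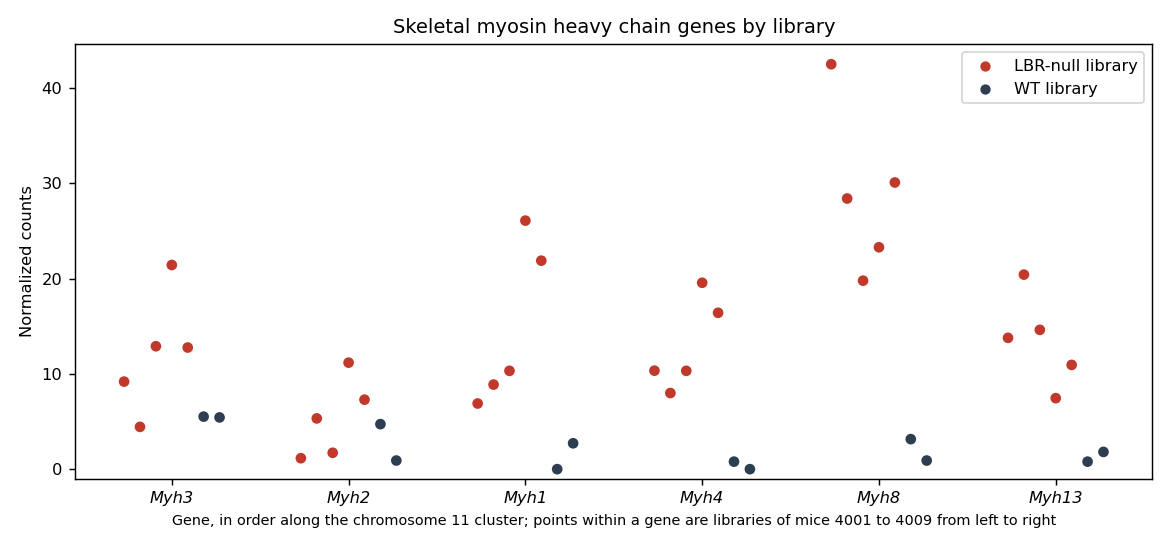
Normalized counts (y axis) of the 6 skeletal myosin heavy chain genes of the chromosome 11 cluster (x axis, in chromosomal order), 1 point per library, red for LBR-null and dark for WT. For Myh1, Myh4, Myh8 and Myh13 every red point is above both dark points, while Myh3 and Myh2 overlap.

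These heavy chains are close paralogs in sequence, so reads can be divided among them by the counting, and the use of strand was not given in the sources used here. The same holds for Myh6 and Myh7, which are neighbours on chromosome 14, for Myl12a and Myl12b and for Myl6 and Myl6b.

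The other skeletal genes went several ways. Myl1, the fast essential light chain, read 428 and 341 in mouse 4001, 12.9 in mouse 4002, 10.2 and 3.65 in mouse 4007 and 6.30 and 6.33 in WT. Acta1, skeletal actin, chosen after its values were seen, read 196 and 186, 5.16, and 0.931 and 2.73 in the same order, against 10.2 and 0.905. Both were by far the highest in mouse 4001, whose values make Myl1 the highest of the class per kilobase in the mean of the 4 mice. In WT it read 3.57 normalized counts per kilobase, below Tnnt1 at 21.9. Tnni1, the slow troponin I, read 19.5 and 37.3, 11.2, and 20.5 and 20.1 against 7.09 and 10.9, above WT throughout, with LBR-null mice at 19.9 ± 8.61 (SD, n = 3) against 8.97 (log2 fold change 0.98, SE 0.64, limma adjusted p = 0.461). Tnnt1, the slow troponin T, was below WT throughout, with 40.2 and 40.8, 18.1, and 15.8 and 14.6 against 48.8 and 47.0 (−1.06, SE 0.64, limma adjusted p = 0.426). Tnnc2, the fast troponin C, was below both WT libraries at 1.15 to 3.65 against 4.72 and 5.43, all of them 6 reads or fewer. Tnni2 overlapped, at 1.72 to 20.4 against 7.24 and 10.2. Tnnt3 overlapped as well, at 4.44 to 15.8 against 3.62 and 7.09.

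Over the 11 tested skeletal genes the median log2 fold change was 1.19 and 8 were at least 2-fold higher (14.5% of all genes), 6 without mouse 4001. In mice 4001, 4002 and 4007 the medians were 1.91, 0.94 and 1.18. Of the 20 other genes of the skeletal apparatus, 14 were at least 2-fold higher (14.5% of all genes) and 2 lower (7.04%). Without mouse 4001, 8 were higher. With all mice limma called 0, whereas DESeq2 called Eno3, a muscle enolase, higher (3.24% of all genes) and Pvalb lower (3.48%). Without mouse 4001 limma also called Eno3 higher (2.94% of all genes) and Pvalb lower (3.83%). Mb, myoglobin, read 15669 and 12259 in mouse 4001, 187 to 249 in the other LBR-null libraries and 250 and 43.4 in WT, the pattern of the cardiac genes. Ttn, the giant sarcomeric spring, read 4691 and 4826, 221 to 306, and 135 and 147, above WT throughout (log2 fold change 2.26, limma adjusted p = 0.498). Mouse 4001 read 18.3 times the mean of mice 4002 and 4007, and the log2 fold change of Ttn was 0.86 without it. Tcap, which caps titin, was above WT throughout as well, but mouse 4001 read 41.8 times the mean of mice 4002 and 4007 (3.07, limma adjusted p = 0.467, and 1.29 without mouse 4001). Pvalb, a calcium buffer that fast muscle and the distal convoluted tubule share, ran the other way, at 40.8 to 141 against 517 and 561 (−2.82, limma adjusted p = 0.107, and 0.0353 without mouse 4001).

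Tnni3k read 178 and 199.7 in mouse 4001, 5.16 in mouse 4002, 6.52 and 11.8 in mouse 4007 and 1.57 and 0 in WT. All LBR-null libraries were above WT, with mouse 4001 far above the others, and the 2 WT reads gave a ratio of 90.4 (interval 24.9 to 749), which was 9.11 by means without mouse 4001. Its log2 fold change came to 3.68 (SE 1.81, limma adjusted p = 0.338), and to 2.15 without mouse 4001. Myl10 had 3 reads over all libraries.

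Per kilobase of exon, Myl6, the essential light chain of non-muscle and smooth muscle myosin, was the highest of all in WT kidney (19775 normalized counts per kilobase), ahead of Myl9 (4137), Myl12b (3157), Tpm4 (2397) and Acta2 (2067). The class median log2 fold change was −0.51 in the mean, −0.56 in mouse 4001, −0.27 in mouse 4002 and −0.51 in mouse 4007. Of the 8 genes, 6 lay below both WT libraries without overlap (25.7% of all genes tested), 1 was above (25.5%) and 1 overlapped. By ratio of means 0 differed 2-fold.

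Myl6 read 9571 and 7256 in mouse 4001, 9269 in mouse 4002, 7657 and 7489 in mouse 4007 and 12935 and 13366 in WT (log2 fold change −0.65, SE 0.30, limma adjusted p = 0.309). Tpm4, a tropomyosin of non-muscle cells, read 3410.3 and 3117, 3187, and 2547 and 2579 against 5334 and 5228 (−0.82, SE 0.27, adjusted p = 0.176, and 0.0368 to 0.582 over the alternatives). Both were lower in all 3 LBR-null mice by a similar amount. Myl6b, a less abundant essential light chain, read 36.7 and 43.5, 101, and 55.9 and 54.7 against 121 and 138, with the LBR-null mice more spread (−1.07, SE 0.56, adjusted p = 0.364). Myh9 and Myh10, the heavy chains of non-muscle myosin IIA and IIB, were below both WT libraries, at 6089 to 6973 against 8929 and 9300 (−0.53, adjusted p = 0.344) and 1497 to 2386 against 2672 and 2746 (−0.48, adjusted p = 0.442). Myh14, the heavy chain of myosin IIC that epithelia use, was the exception. It read 1467 and 1277 in mouse 4001, 698 in mouse 4002, 1017 and 1147 in mouse 4007 and 691 and 603 in WT, above WT throughout, though mouse 4002 was close to the first WT library (0.64, SE 0.39, limma adjusted p = 0.429). Myl12b, at 3973 to 5146 against 5394 and 5411, was also below WT, and its paralog Myl12a, the other regulatory light chain of non-muscle myosin, overlapped.

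The partners of these motors were measured in further lists. Of 16 cytoplasmic actins and partners, 10 were below both WT libraries (25.7% of all genes) and 1 above (25.5%), 2 were at least 2-fold higher (0 without mouse 4001) and 0 were called. Actb and Actg1, the cytoplasmic actins, read 13648 to 21199 against 28339 and 29732 and 8304 to 14206 against 14464 and 14775 (log2 fold changes −0.85 and −0.46, limma adjusted p = 0.327 and 0.563). The 2 that were higher, Tmod1 and Lmod2, act at the pointed end of actin filaments, in heart muscle among other tissues, and were in mouse 4001 4.85 and 19.8 times the mean of mice 4002 and 4007.

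Of 12 genes that set light chain phosphorylation, 0 differed 2-fold and 0 were called. Rhoa, a small GTPase that promotes contraction, read 6124 to 9148 against 8350 and 8480 and overlapped (−0.19, limma adjusted p = 0.787). Mylk3, the cardiac light chain kinase, read 441 and 443 in mouse 4001, 24.1 in mouse 4002, 24.2 and 23.7 in mouse 4007 and 107 and 83.2 in WT. Mice 4002 and 4007 were thus below WT and mouse 4001 above (−0.56 with mouse 4001, adjusted p = 0.885, and −1.94 without it, adjusted p = 0.0354).

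Of 14 regulators of muscle genes, 10 were tested, 4 were at least 2-fold higher (14.5% of all genes) and 0 lower. Limma called 0, whereas DESeq2 called 1, Tbx5, higher (DESeq2 adjusted p = 0.0092, where 3.24% of all genes were called). Mkl2, a coactivator of serum response factor, read 803 to 1109 in LBR-null libraries and 535 and 591 in WT (0.77, limma adjusted p = 0.174). Mef2a, a myocyte enhancer factor, read 2658 to 3548 against 1602 and 1665 (0.89, adjusted p = 0.148). Both were above WT in all 5 libraries, while Srf, serum response factor itself, was below at 597 to 873 against 1028 and 1118 (−0.60, adjusted p = 0.327). Tbx5, at 24.1 to 125 against 2.71 and 6.30, was above WT also in mice 4002 and 4007 (3.07, limma adjusted p = 0.142, and 0.0412 without mouse 4001).

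The genes whose log2 values ran closest to some of these over the 7 libraries are given as a description, since the libraries come from 4 mice and share them. For Myl9 they were Dnaja1, Fkbp4, Lgals9, Keg1 and Gatm (Pearson r 0.997 to 0.998). Those nearest to Actg2 were Jun, Hnf4a, Dcaf12l1, Mpp1 and Fbxo22 (0.984 to 0.9904). Actc1 ran with Fsd2, Hspb7, Tcap and Mhrt (0.996 to 0.999), of which Mhrt is an RNA transcribed from the Myh7 locus. Myh4 ran with 4931440F15Rik, Prkab1, 2810454H06Rik, Sphk1 and 4930432K21Rik (0.993 to 0.997).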

How the data were processed

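Kidney RNA was sequenced from 3 LBR-null mice and 1 WT mouse in 7 libraries, grouped by the genotype in the labels. Alignment was to mm9 (STAR 2.6.0). The values the authors deposited are a signal per gene and library, each a read count over the size factor of DESeq2 1.25.1. The counting program, its annotation and its use of strand are not given in the sources used here. All values (100%) were whole multiples of 1 read within 0.01 read, so reads were recovered. Repeat libraries were averaged within a mouse. It is not stated whether they come from separate aliquots.

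Genes with a mean of at least 5 (17283) were tested with limma 3.58.1 in R 4.3.3 (trend, pseudocount 1, 2 residual degrees of freedom), two-sided, and the calls needed an adjusted p under 0.05 and a 2-fold change. Alternatives were edgeR 4.0.16 and DESeq2 1.42.0 on recovered reads summed by mouse, a fit of all libraries with mouse as a random term (correlation 0.741), other scalings, pseudocounts and filters, 1 library per mouse, each LBR-null mouse left out and mouse 4002 alone. P-values rest on the spread among 3 LBR-null mice.

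The gene family and the lists were chosen with earlier results of these data known, although the rule for members uses symbols alone. Values in every library are given for smooth muscle genes, for the 4 largest absolute log2 fold changes of each other class, for genes whose genotypes did not overlap and differed at least 1.5-fold, and for the highest level per kilobase in each class. From each list, the 2 genes with the highest mean and the 2 with the largest log2 fold change are named. A few genes that this rule or the likeness measure selects are not reported here. Myh6, Myl2, Acta1, Srf, Myocd, Cnn1, Ppp1r14a and Eno3 were chosen after values were seen. So were Ddx3y, the markers Lum, Postn, Pdgfra, Col1a2, Fabp4, Kap and Aqp1, and the per-library values of Nkx2-5, Tbx5 and Mylk. Levels per kilobase and gene positions use GENCODE vM1 models on NCBIM37. Promoter windows are from RefSeq on GRCm38.p6. Intervals are exact 95% intervals on recovered reads.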

Additional observations from a re-analysis of the deposited data

Results flagged for a closer look

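Myh9, the heavy chain of non-muscle myosin IIA, read 6973 normalized counts in the second library of mouse 4001, while the other LBR-null libraries read 6089 to 6211, including 6089 in the first library of the same mouse. Its gap to the others exceeded the 95% limit of Dixon's test for 5 values (0.71 of the range). This was the only one among 42 groups of 5 LBR-null libraries, of which chance flags about 1 in 20. The 5 libraries come from 3 mice. All 5 values stayed below both WT libraries (8929 and 9300).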

How the results depend on the processing

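No gene was called with limma, and the count of calls over all genes moved with the choices. Filtering at a mean of 1 gave 3 higher and 8 lower, the second library of each mouse gave 1 higher, the second WT library alone (chosen after seeing the data) gave 1 higher, edgeR gave 1 and 27, DESeq2 gave 539 and 578, and mouse as a random term gave 346 and 501. Leaving out each LBR-null mouse gave 0 to 505 higher and 0 to 658 lower. Of the genes described here, 0 to 7 were called when a mouse was left out, 4 with DESeq2 and 3 with mouse as a random term (Myh7b, Myl9 and Tpm2). Counts that were 2-fold higher ran from 11 to 23 and lower from 3 to 5 when a mouse was left out, with the mean filter applied anew, and were 12 and 6 for mouse 4002 alone. The cause was not tested.

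The smooth muscle median ran from −1.53 to −0.81 when a mouse was left out, and the skeletal median from 1.29 to 2.09, where the 1.29 without mouse 4001 leaves out Tnni2 and Acta1, which then failed the mean filter (1.06 over all 11 genes). The skeletal median was 1.88 with the second libraries, 1.87 with the second WT library, 1.73 with mouse as a random term, 3.36 with edgeR and 3.43 with DESeq2. The cardiac median ran from 0.75 to 3.29 when a mouse was left out and was 4.45 with edgeR and 4.46 with DESeq2. The non-muscle median was −0.27 for mouse 4002 alone. Direction turned for Myh7 (−0.58 to 1.42 when a mouse was left out, −0.14 with the first WT library, chosen after seeing the data), Tpm3 (−0.39 to 0.0196) and Tpm1 (−0.25 to 0.77). For mouse 4002 alone it also turned for Acta1 (−0.093, against 1.19), Myl12a (0.0018), Tpm1 and Myh7, and without mouse 4001 the ratio of Acta1 to WT was 0.627 in place of 11.9. No paired analysis was possible because the replicate numbers mark repeat libraries of 1 mouse, and mice of the groups are not paired. With 1 WT mouse, the spread among WT kidneys is unknown, and genes of a few reads, such as Myh1 and Myh4, carry wide counting intervals.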
